A study of Rattus norvegicus with 4 samples.

Results

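The response of neonatal rat ventricular myocytes to phenylephrine was examined with a negative control siRNA in the cells, as the library siNeg PE over the library siNeg. These are beating heart muscle cells taken from newborn pups and grown in a dish. A feature was included when its mean RPKM over these 2 libraries reached 1, which held for 12295 of the 26406 listed features. RPKM corrects a read number for the length of the gene model and for the read total of the library.

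Both libraries came from hearts of 2-day-old Sprague Dawley rats, from cells transfected for 6 h with the control siRNA (siNeg). The treated library (siNeg PE) received 50 µM phenylephrine, and cells were collected after 48 h. The series holds 4 libraries, the other two with an siRNA that targets the noncoding RNA Chaer (siChaer and siChaer PE). Each group was 1 library, so no value has an error from replicates and no test between the groups was made. The labels tell neither how many hearts were pooled nor whether different cultures were used for different libraries.

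Phenylephrine activates α1-adrenergic receptors. In cardiac myocytes these couple through Gq to phospholipase C, calcium and protein kinase C, and they drive cell growth, assembly of sarcomeres and a return of genes of the fetal heart. This is a standard culture model of cardiac hypertrophy. The response with control siRNA is the arm of the study in which Chaer, a cardiac RNA associated with hypertrophy, was not targeted. The level of Chaer itself was not analysed here.

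The 2 libraries held 35404497 reads in listed features without and 33944988 with phenylephrine. Between 3.88% and 4.29% of the reads of the 4 libraries lay outside the listed features. The 12295 features held 99.7% of the listed reads in each of the 2 control siRNA libraries, and their median was 866 reads without and 769 with phenylephrine. Features are listed under Ensembl gene identifiers, and only H19 is listed under a symbol. The reference table used here pairs 0 of the 26405 identifiers with a symbol, so heart muscle markers and pathway genes were not looked up. Besides H19, the 2 features with the highest and the 2 with the lowest ratio are given by identifier and the others by their rank. Just inside the limit of the members, 5 features had mean levels of 1.000 to 1.002 RPKM and log2 ratios of -0.67 to 0.43. Just outside it, 5 features had means of 0.998 to 1.000 RPKM and log2 ratios of -0.37 to -0.26.

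Most features differed little with phenylephrine, and the highest ratios were further from 1 than the lowest. Ratios are given on the log2 scale of (RPKM + 1), which understates the change of weakly expressed features. The middle of the members lay between -0.25 (25th percentile) and 0.11 (75th percentile), with a median of -0.07, and 7933 features (64.5%) were within 1.2-fold. A 2-fold higher value or more was found for 139 features, 1.13% of those compared, and at or beyond 2-fold lower were 76, 0.618%. At 4-fold the counts were 13 higher (0.106%) and 1 lower (0.00813%). The count of 1 rests on the pseudocount. By the plain ratio the features ranked 2nd, 3rd and 5th from the bottom were also past 4-fold, at 4.51, 4.23 and 5.08 times lower. At 8-fold they were 3 higher (0.0244%) and 0 lower. These counts carry no p-value, and in bulk RNA fewer cells of a type and less RNA per cell cannot be told apart.

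Of the 215 features past 2-fold, 64.7% were higher, against 78.1% with TMM scaling, 76.5% with median-of-ratios scaling and 57.1% with scaling on reads outside the 20 most abundant features. With a pseudocount of 0.1 RPKM the share was 51.0%, from 183 higher and 176 lower features. Below 2-fold the balance was the other way. Between 1.5-fold and 2-fold, 296 features were higher and 423 lower, so that past 1.5-fold in all there were 435 higher features (3.54%) and 499 lower ones (4.06%). Of all members, 60.5% had a ratio below 1 by any amount, but 48.1% with TMM scaling, so the direction of small changes rested on the scaling.

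Counting error was small beside the ratio for most of the features past 2-fold. The exact binomial 95% interval of the plain read ratio covers counting error only. It excluded 1 for all 139 higher and all 76 lower features, and for 7544 of the 12295 members. The 139 and the 76 were chosen on the same reads, so this result for them follows largely from the choice. The nearer bound of the interval was itself at least 2-fold for 133 of the 139 and for 59 of the 76. Over all members, 146 features (1.19%) had such a bound on the higher side and 72 (0.586%) on the lower side. No molecular identifiers are described for these libraries, so 2 reads may stem from 1 molecule, and differences between cultures are not in these intervals.

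**Figure D1:**
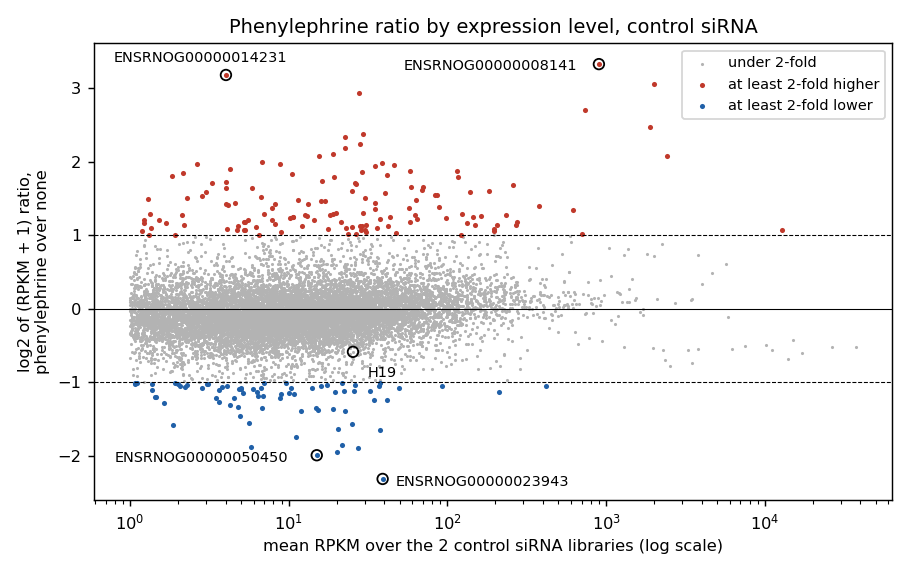
Log2 ratio of (RPKM + 1), phenylephrine over none with control siRNA, against the mean RPKM of the 2 libraries (log axis), 1 point per member; dashed lines mark 2-fold. The 139 higher features reach 3.32 and the 76 lower ones -2.31, and the 5 circled features are those described by name.

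ENSRNOG00000008141 had the highest ratio on the scale with a pseudocount of 1 RPKM. With 0.1 RPKM its log2 ratio was 3.33, below the 6.35 of ENSRNOG00000014231. ENSRNOG00000008141 was listed with 3778 reads and 163 RPKM without and 36291 reads and 1636 RPKM with phenylephrine, which is 10.1-fold (95% counting interval 9.73 to 10.4). It moved from the 356th to the 36th most abundant feature by RPKM. Its gene model was short, at 628 bp. The counting intervals of the 2 levels, 157 to 168 and 1620 to 1653 RPKM, lay far apart.

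ENSRNOG00000014231 was detected only with phenylephrine in these 2 libraries. It had 0 reads without and 288 reads, or 8.03 RPKM, with phenylephrine, over a gene model of 1015 bp. A count of 0 allows up to 3 reads, which for this feature is 0.0799 RPKM, and the treated level was 101 times that floor. Allowing for the counting error of each library, the treated level was at least 81.3-fold higher. Its log2 ratio of 3.18 is set by the pseudocount, and was 6.35 with a pseudocount of 0.1 RPKM and 1.38 with 5 RPKM. It was the single member with 0 reads without phenylephrine. Over all 26406 features, 4 had 0 reads without and at least 10 with phenylephrine, of which the next highest had 17 reads. In the other direction 5 features went from at least 10 reads to 0, and the highest of them had 14 reads.

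The next ranks held both very abundant and moderate features. The feature ranked 3rd went from 430 to 3578 RPKM, 8.33-fold (8.18 to 8.49). The feature ranked 4th went from 5.68 to 50.0 RPKM, 8.81-fold (7.99 to 9.73). The 12 highest members together ranged in plain ratio from 4.23-fold to 10.1-fold, apart from the one with 0 reads. They began at a median of 8.99 RPKM and reached a median of 50.0 RPKM. Of these 12, 5 started at 163 RPKM or more and ended at 1279 RPKM or more, while 6 others started between 5.68 and 9.15 RPKM and ended between 31.4 and 50.0 RPKM.

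ENSRNOG00000023943 had the lowest ratio and was the only member at least 4-fold lower on the scale with the pseudocount. It went from 4317 reads and 65.6 RPKM (63.7 to 67.6) to 781 reads and 12.4 RPKM (11.6 to 13.3), 5.28 times lower (4.89 to 5.70). It moved from the 1118th to the 5540th most abundant feature. ENSRNOG00000050450 came next, from 794 reads and 24.6 RPKM (22.9 to 26.3) to 168 reads and 5.44 RPKM (4.65 to 6.33), 4.51 times lower (3.82 to 5.36).

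The lowest ratios did not belong to very abundant features. The 12 lowest members began between 3.28 and 65.6 RPKM and ended between 0.429 and 17.7 RPKM. Their median was 31.9 RPKM without phenylephrine, against 11.4 RPKM for all members. With phenylephrine it was 8.25 RPKM, against 10.6 RPKM. The feature ranked 5th from the bottom went from 9.71 to 1.91 RPKM, 5.08 times lower (4.56 to 5.67), a larger plain fold than that of the features ranked 2nd to 4th. The feature ranked 10th from the bottom rested on 8 reads without and 1 read with phenylephrine in a gene model of 66 bp, a ratio of 0.131 (0.00295 to 0.977). Its place among the lowest rests on these 9 reads.

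H19, a noncoding RNA expressed from the maternal allele and abundant in fetal tissues, was lower with phenylephrine without reaching 2-fold. It had 2635 reads and 30.6 RPKM (29.5 to 31.8) without and 1651 reads and 20.1 RPKM (19.1 to 21.1) with phenylephrine, 1.52 times lower (1.43 to 1.62). Its log2 ratio of -0.58 was the 505th lowest of the 12295 members. Among 1175 members within 1.2-fold of its mean level, whose median log2 ratio was -0.05, 36 including H19 were as low or lower. It ran from -0.65 to -0.49 over the settings run.

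**Figure D2:**
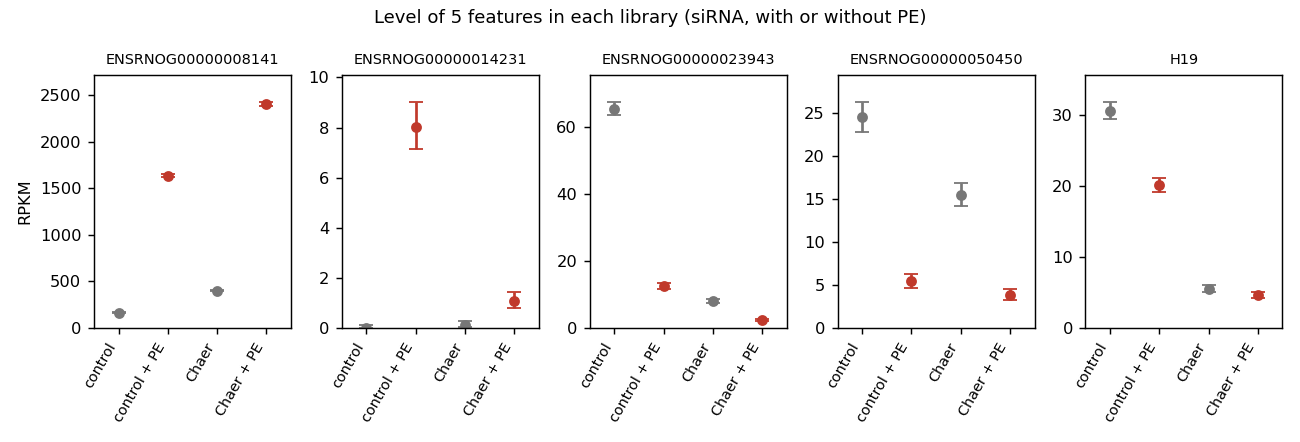
Level in RPKM of the 5 named features in each of the 4 libraries (grey without, red with phenylephrine, PE); bars are exact Poisson 95% intervals of the reads, 1 library per point. With control siRNA, ENSRNOG00000008141 goes from 163 to 1636 RPKM and ENSRNOG00000023943 from 65.6 to 12.4 RPKM.

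The 139 higher features were chosen on these same libraries, so a larger share of reads with phenylephrine follows from the choice, and its size is given as a description. They held 2.63% of the listed reads without and 7.09% with phenylephrine, and their median level went from 10.9 to 34.4 RPKM. A single very abundant feature gave 37.8% of their treated reads. It went from 452785 reads and 8221 RPKM to 910077 reads and 17307 RPKM, which is 2.11-fold (2.10 to 2.11). Without it the share of the others went from 1.35% to 4.41%. At least 100 RPKM were reached by 16 of the 139 without and 32 with phenylephrine. Under 1 RPKM without phenylephrine were 19 of the 139, which passed the limit on the mean through the treated library.

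The 76 lower features, chosen in the same way, held 0.372% of the listed reads without and 0.145% with phenylephrine. Their median level went from 10.1 to 4.16 RPKM. Under 1 RPKM with phenylephrine were 12 of the 76, which passed the limit on the mean through the untreated library. Their lowest total over both libraries was 9 reads, against 93 reads among the higher features. Around the level of 1 RPKM, 176 of the 26406 listed features were under it without and at or above it with phenylephrine. Another 332 crossed it the other way, and 12024 were at or above it in both libraries. These counts were made with scaling to the read total, and the direction of small changes rested on the scaling. Most crossings were small, since 24 features went from under 1 to at least 2 RPKM and 17 from at least 2 to under 1 RPKM.

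The 20 features with the most reads in the untreated library held 24.9% of the listed reads there and 21.2% with phenylephrine. Of these, 12 of 20 were lower, a share close to the 60.5% of all members with a ratio below 1. The 20 were picked on the untreated library. The feature with the most reads went from 7.14% to 4.98% of the listed reads, and from 44204 to 30960 RPKM, 1.43 times lower. The next 4 by reads were 1.34 to 1.61 times lower. The 95% counting intervals of these read shares, exact binomial, were within 0.0142 percentage points of the value.

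Features of at least 1000 RPKM were cut at 1.2-fold into 3 sets of similar size. Of 53, 17 were over 1.2-fold lower, 19 were within 1.2-fold and 17 were over 1.2-fold higher. Of all 12295 members, 7933 (64.5%) were within 1.2-fold. The 25th and 75th percentiles of the log2 ratio were -0.51 and 0.44 for the 53, and -0.25 and 0.11 for all members. The 17 lower ones lay in a narrow range, 1.34 to 1.72 times lower, and together went from 20.7% to 14.1% of the listed reads. They included the 5 features of highest RPKM in the untreated library and 9 of the top 10. The 17 higher ones ranged from 1.21-fold to 8.33-fold and went from 4.87% to 9.29%. The sets were chosen on this same ratio, so the direction in which their read shares moved follows from the choice. The 17 higher ones began as low as 430 RPKM, so some passed the limit on the mean only through the treated library. With TMM scaling 17 were lower and 20 higher, and with scaling on reads outside the 20 most abundant features 18 and 16. RPKM is relative to the read total, so the levels of such abundant features and of all others are tied to each other.

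**Figure D3:**
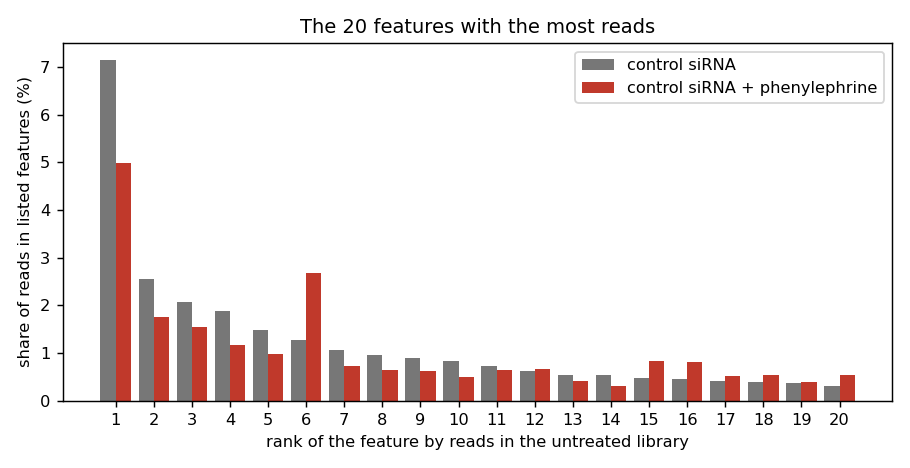
Share of the listed reads (%) held by each of the 20 features with the most reads in the untreated library, without (grey) and with (red) phenylephrine, 1 library per bar. The first goes from 7.14% to 4.98%, and the 6th is the only one that passes 2-fold, from 1.28% to 2.68%.

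The ratio varied with the level of the feature. The median log2 ratio was -0.12 for 3383 features of 1 to 5 RPKM, -0.10 for 4905 of 5 to 20 RPKM, -0.01 for 3315 of 20 to 100 RPKM and 0.11 for 639 of 100 to 1000 RPKM. For the 53 features above 1000 RPKM the median was 0.09, between quartiles of -0.51 and 0.44. The class of 20 to 100 RPKM changed sign with TMM scaling (0.08) and median-of-ratios scaling (0.07), and the signs of the other classes held. At least 2-fold higher were 0.857%, 0.754%, 1.42% and 3.44% of these classes, and 7.55% (4 of 53) of the features above 1000 RPKM. At least 2-fold lower were 0.857%, 0.530%, 0.573% and 0.313%, and 0 of 53. The classes were cut on the mean RPKM of the 2 control siRNA libraries. A feature higher with phenylephrine can therefore enter a higher class through its treated level. Above 1000 RPKM, the features ranked 3rd, 6th and 12th by ratio had 430, 577 and 923 RPKM without phenylephrine. These entered that class through their treated level. A feature lower with phenylephrine can likewise enter a higher class through its untreated level. How far the cut adds to the rise with level in the share of higher features was not tested. In the lowest class, where the pseudocount weighs most, 29 features were higher and 29 lower. By the nearer bound of the plain ratio these were 42 and 34. The gap between the medians of the classes of 100 to 1000 and 1 to 5 RPKM was 0.23, and 0.21 to 0.26 over the 4 scalings.

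With Chaer siRNA the same classes showed no such order. Their median log2 ratios were -0.09, -0.10, -0.10 and -0.07, a gap of 0.02 between the same ends. This second comparison has its own treated and untreated library. The classes were cut on the mean of the control siRNA libraries, which enter the control ratio but not this one. The gaps are therefore not on an equal footing, and what the cut does to an order by level was not tested. With 1 library per group the difference between the gaps was not tested.

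The ratio varied less with gene-model length. The median log2 ratio was -0.03 for the shortest 3073 features (under 1239 bp) and -0.12 for the longest 3076 (at least 3066 bp), a gap of -0.09 under each of the 4 scalings. The median of the shortest changed sign with TMM scaling (0.05) and median-of-ratios scaling (0.05). Among features of 5 to 20 RPKM the medians were -0.06 for the shortest and -0.14 for the longest. With Chaer siRNA the gap had the other sign, 0.06. Features at least 2-fold higher were fewer at both ends, 24 in each, than in the 2 middle sets, with 48 and 43. Length and level are properties of the features, not replicates.

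**Figure D4:**
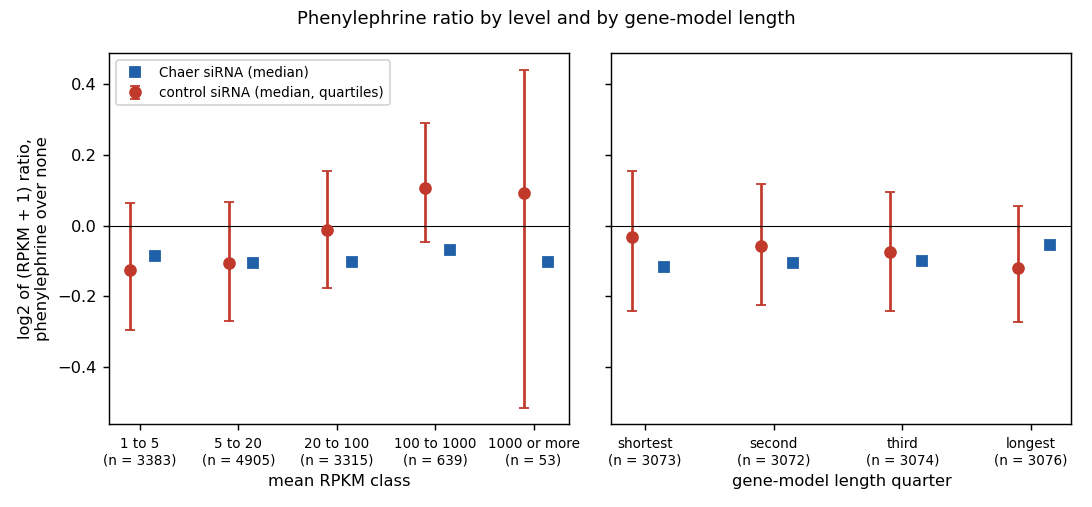
Log2 ratio of (RPKM + 1), phenylephrine over none, by mean RPKM class (left) and by gene-model length, shortest to longest (right); red points and bars are the median and the 25th and 75th percentiles over features with control siRNA, blue squares the median of the same features with Chaer siRNA. The red medians go from -0.12 at 1 to 5 RPKM to 0.11 at 100 to 1000 RPKM, while the blue ones in the left panel stay between -0.10 and -0.07. The level classes were cut on the control siRNA libraries, which enter the red ratios only.

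The other pair of libraries gave a second reading of the same features, with Chaer siRNA in the cells. Over the same 12295 members, 134 (1.09%) were 2-fold higher or more there and 109 (0.887%) were at or beyond 2-fold lower. Of the 139 features higher with control siRNA, 137 had a ratio above 1 with Chaer siRNA and 90 (64.7%) were again at least 2-fold higher. Of the 76 lower ones, 75 had a ratio below 1 and 37 (48.7%) were again at least 2-fold lower. In each direction 0 were 2-fold the opposite way. Over all members, 38.0% had a ratio above 1 and 62.0% below 1 with Chaer siRNA, and 66.9% had the same direction under both siRNAs.

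The share grew with the size of the ratio. For features 1.5-fold to 2-fold higher with control siRNA, 22 of 296 (7.43%) were at least 2-fold higher with Chaer siRNA. For those 2-fold to 4-fold higher it was 78 of 126 (61.9%), and for those at least 4-fold higher 12 of 13 (92.3%). On the lower side it was 54 of 423 (12.8%) for 1.5-fold to 2-fold and 36 of 75 (48.0%) for 2-fold to 4-fold. Median log2 ratios of the 139 were 1.30 with control and 1.17 with Chaer siRNA, and of the 76 they were -1.13 and -0.999. The features were chosen on the control siRNA ratio, so the smaller second value is no measure of a weaker response with Chaer siRNA.

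Levels in the 4 libraries differed between the higher and the lower features. For the 139 higher features the median levels were 10.9 RPKM in siNeg, 11.2 in siChaer, 34.4 in siNeg PE and 29.4 in siChaer PE. For the 76 lower features they were 10.1, 6.58, 4.16 and 2.43 RPKM. For the 12 lowest members they were 31.9 RPKM in siNeg and 7.75, 8.25 and 2.81 RPKM in siChaer, siNeg PE and siChaer PE. The untreated control siRNA library had the highest median of the 4 for these features. They were chosen as higher in that library than in siNeg PE, and the libraries with Chaer siRNA were not used for the choice.

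The 5 named features had the same direction with Chaer siRNA as with control siRNA. ENSRNOG00000008141 stood at 401 RPKM in siChaer and 2406 RPKM in siChaer PE, 6.00-fold (5.87 to 6.12). The log2 difference of its ratios on the scale of reads, Chaer minus control siRNA, was -0.75 (95% counting interval -0.80 to -0.69). ENSRNOG00000014231 had 5 and 45 reads there, 8.90-fold (3.55 to 28.7), and with 0 reads in siNeg the difference had a counting interval of -10.41 to -2.01. ENSRNOG00000023943 stood at 8.04 and 2.34 RPKM, 3.44 times lower (2.89 to 4.10), a log2 difference of 0.62 (0.35 to 0.89). ENSRNOG00000050450 stood at 15.5 and 3.87 RPKM, 4.01 times lower (3.32 to 4.87), and its difference of 0.17 (-0.19 to 0.53) lay within counting error. H19 stood at 5.52 and 4.60 RPKM, a log2 ratio of (RPKM + 1) of -0.22 (-0.37 to -0.06) and a difference of 0.35 (0.14 to 0.55). These differences have no test, since variation between cultures was not measured.

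**Figure D5:**
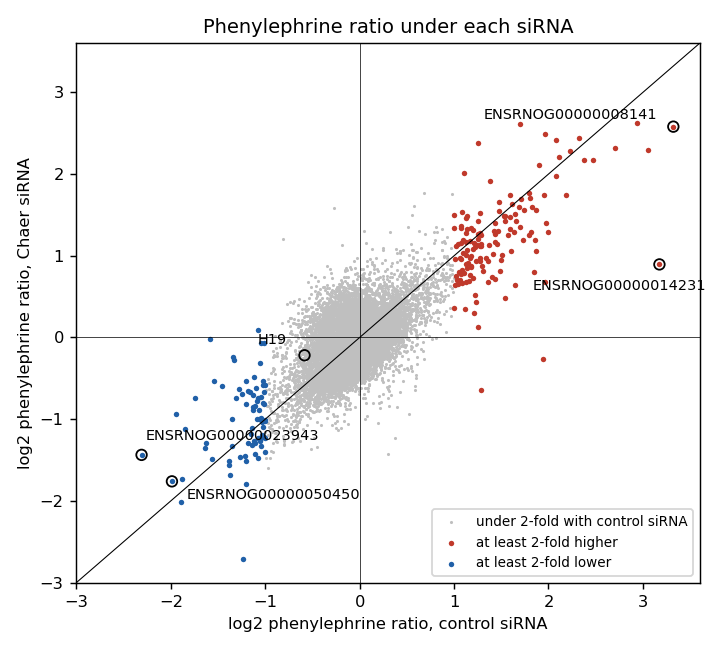
Log2 phenylephrine ratio of (RPKM + 1) with control siRNA (x axis) against Chaer siRNA (y axis), 1 point per member; red and blue mark features at least 2-fold higher or lower with control siRNA, and the line marks equal ratios. Of the red points 137 of 139 lie above 0 on the y axis, and of the blue points 75 of 76 lie below 0.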

How the data were processed

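RNA-seq of 4 libraries, 1 per group, was used. Per the labels' protocols, total RNA was extracted with TRIzol and made into stranded TruSeq libraries. The submitters' processing notes name TopHat2 and the build rn5; how reads were counted, on which annotation and with which strand setting, is not given in the sources used here. Without strand, overlapping features on opposite strands would share reads. Each deposited table lists raw counts and RPKM per feature, as named in the headers by the authors. Dividing counts by RPKM gave whole gene-model lengths and read totals of 36989888 (siNeg), 35314303 (siNeg PE), 40394068 (siChaer) and 40835172 (siChaer PE).

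The ratio was log2 of (RPKM + 1) with over without phenylephrine, and 2-fold was the size rule. Plain ratios of RPKM have exact binomial 95% intervals and levels exact Poisson ones. A difference of ratios uses log reads with 0.5 reads added and a normal approximation. A count of 0 was taken to allow 3 reads. The ratio and interval code was tested on simulated data. Tools were Python 3.11.15, scipy 1.17.1, edgeR 4.0.16 (TMM factors) and DESeq2 1.42.0 (median-of-ratios size factors), with no test from either.

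The named features were to be the 12 highest and 12 lowest with a symbol, members of 32 gene lists, the 2 highest and 2 lowest identifiers and H19. Because the reference table (assembly GRCr8) pairs 0 identifiers with a symbol, the lists were not applied, and the first 12 on each side are given by rank. Members and rules were chosen with earlier results of these data known; the classes, bands and sets by level, length and size were chosen after seeing the data. Alternatives were other pseudocounts, filters, scalings and size rules.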

Additional observations from a re-analysis of the deposited data

How the results depend on the processing

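No paired analysis was possible because the comparison has a single library on each side, and for the same reason none can be left out. A fit over all 4 libraries with the siRNA as a block would estimate a mean over both siRNAs, which is another quantity, and was not run. Of the settings run, the count of 139 higher features stayed between 110 and 183 except with a pseudocount of 5 RPKM (74) and with the 1.5-fold rule (435). The count of 76 lower features became 176 with a pseudocount of 0.1 RPKM, 19 with 5 RPKM, 48 with TMM scaling, 47 with a mean of at least 5 RPKM and 499 with the 1.5-fold rule. It was 51 with median-of-ratios scaling, 96 without the 20 most abundant features in the scaling, 79 without a filter and 72 by the nearer bound of the counting interval. The share of higher features among those past the rule ran from 46.6% with the 1.5-fold rule to 79.6% with a pseudocount of 5 RPKM. The median log2 ratio of all features ran from -0.13 to 0.01. The signs of the log2 ratios of the 5 named features held under each pseudocount, filter and scaling. Depth limits features with few reads, as their counting intervals show, and variation between cultures was not measured.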
